A study of Mus musculus with 24 samples.

Results

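Heparan sulfate is a sulfated sugar chain that cells build on core proteins, and 10 genes of the enzymes that make it were taken by symbol: Ndst1, Ndst2, Ndst3, Ndst4, Ext1, Ext2, Hs2st1, Hs6st1, Hs6st2 and Glce. Of these, 8 had a probe set annotated to that symbol alone, out of 30142 genes with such a probe set, and each of the 8 had 1. The probe set of Glce is also annotated to a microRNA gene, so Glce was not used, and Ndst1 was not analysed here. Ndst3 was chosen by its measured level, which was lower in the double knockout than in the other genotypes, so its values there are a description and support no test: it went through the fit of all genes, and its calls there follow from the choice. The other enzymes were picked for the pathway.

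The levels come from 24 Affymetrix Mouse Transcriptome Array 1.0 arrays, 1 per sample, of mouse colon fibroblasts sorted as Epcam-, CD45-, CD31- and gp38+, gp38 being podoplanin. All mice carried Villincre-ERT2, an inducible Cre recombinase driven by the Villin promoter of the intestinal epithelium, and the ZsGreen reporter. The groups were WT (IhhWT-ApcWT, 7 arrays), ApcKO (IhhWT-ApcKO, 8 arrays) and IhhKO_ApcKO (IhhKO-ApcKO, 9 arrays). Since the recombinase acts in the epithelium, the deletions lie in cells that the sort was set to remove, and the fibroblasts report on them from outside. Epithelial marker levels, given below, varied between the arrays. The labels give no age or sex, and they do not say that each array is a separate mouse, so p-values measure the spread between these samples, which may be technical. In sorted bulk RNA, fewer cells of a type and less RNA per cell cannot be told apart. Values are log2 units made by the authors with RMA, and differences are differences of group means in those units.

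Heparan sulfate chains start from a sugar linker on the core protein. The Ext1 and Ext2 proteins form the polymerase that lengthens the chain. Ndst enzymes remove acetyl groups from its glucosamine and put sulfate in their place, which opens the way for the later steps: the epimerase Glce, the 2-O-sulfotransferase Hs2st1 and the 6-O-sulfotransferases Hs6st1 and Hs6st2. The sulfation pattern sets which proteins bind, among them Hedgehog, Wnt, BMP and FGF ligands, so these enzymes shape how far such ligands travel and how cells receive them. In mammals Ndst1 and Ndst2 are broadly expressed, while Ndst3 and Ndst4 have a narrower range that includes the brain and the embryo.

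Since Ndst3 is the gene the comparison turns on, the 250 bases upstream of its RefSeq start sites are shown, beside those of Hs2st1 as a member with another base composition. The sequences are from RefSeq for build GRCm38.p6, printed 5′ to 3′ on the gene's strand, which is minus for both genes, with CpG dinucleotides in capitals. The build of the array files is not given in the sources used here. The windows are chr3:123672478-123672727 and chr3:123619451-123619700 for Ndst3, and chr3:144570217-144570466 for Hs2st1.
Ndst3, first window: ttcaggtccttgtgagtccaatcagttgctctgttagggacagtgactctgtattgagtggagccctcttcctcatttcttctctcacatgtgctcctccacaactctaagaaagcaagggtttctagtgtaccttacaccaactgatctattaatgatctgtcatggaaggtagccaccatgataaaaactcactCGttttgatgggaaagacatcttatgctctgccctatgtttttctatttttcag
Ndst3, second window: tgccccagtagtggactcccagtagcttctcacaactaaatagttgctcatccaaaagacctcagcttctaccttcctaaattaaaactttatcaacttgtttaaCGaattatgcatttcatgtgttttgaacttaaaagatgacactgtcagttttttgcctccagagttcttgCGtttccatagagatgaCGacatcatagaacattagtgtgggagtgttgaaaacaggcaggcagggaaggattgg
Hs2st1: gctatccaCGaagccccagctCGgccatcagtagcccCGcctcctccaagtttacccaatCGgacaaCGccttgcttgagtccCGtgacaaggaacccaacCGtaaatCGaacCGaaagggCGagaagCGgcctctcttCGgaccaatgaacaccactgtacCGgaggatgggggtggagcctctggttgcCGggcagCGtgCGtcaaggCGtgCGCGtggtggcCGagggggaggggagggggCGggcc
Both Ndst3 windows were poor in CpG, with 1 and 3 of these dinucleotides, against 21 in the Hs2st1 window.

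Over the full RefSeq windows of 300 bases, which add 50 bases after the start, 7 of the 10 listed enzymes had an entry, with 9 windows in all. G and C made up 43.0% and 39.0% of the Ndst3 windows, below the median of 52.67% over 32851 windows of all genes. In the windows of Ndst2, Ext2, Hs2st1, Hs6st1, Hs6st2 and Glce the share lay between 53.7% and 78.0%. The observed over expected CpG ratio was 0.072 and 0.265 for Ndst3, and between 0.567 and 1.05 in the 7 windows of the other enzymes, with a median of 0.384 over all windows. The binding motif of Gli factors, GACCACCCA, was searched on both strands. It was found in 0 of the 9 windows and in 0.253% of all windows, and the lack of these letters in so short a window says nothing about the factors.

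Ndst3, one of the N-sulfating enzymes, had its lowest levels in the double knockout. On the WT arrays A1, A2, A3, A4, A5, A6 and A8 it was at 6.35, 6.38, 7.05, 6.88, 6.59, 6.71 and 6.65 log2 units. In ApcKO it was at 7.27 on A9, 6.32 on B1, 6.36 on B2, 6.79 on B3, 6.54 on B4, 6.47 on B5, 6.25 on B7 and 6.50 on B8. On the IhhKO_ApcKO arrays B9, C1, C2, C3, C4, C5, C6, C7 and C9 it was at 6.22, 5.71, 5.78, 5.66, 6.06, 6.23, 5.95, 5.54 and 5.71. The WT and ApcKO ranges overlapped widely. Each of the 9 double-knockout arrays lay below every ApcKO and every WT array, but by a narrow margin, since its highest value was 6.23 and the lowest value of the other groups was 6.25.

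The group means of Ndst3 were 6.66 ± 0.25 (SD) over the 7 WT arrays, 6.56 ± 0.33 over the 8 of ApcKO and 5.87 ± 0.25 over the 9 of the double knockout. The double knockout was thus lower by 0.69 log2 units than ApcKO, which is 1.61-fold, and by 0.79 than WT, which is 1.72-fold. Those 2 differences share the double-knockout arrays for which the gene was picked. ApcKO and WT differed by -0.095 (95% interval -0.37 to 0.18), which did not pass the limma test (adjusted p = 0.97), with 6 of 8 ApcKO arrays below the WT mean. That comparison uses the same ApcKO arrays as the one that picked the gene. In the order of the levels, WT and ApcKO did not differ beyond their spread.

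**Figure D1:**
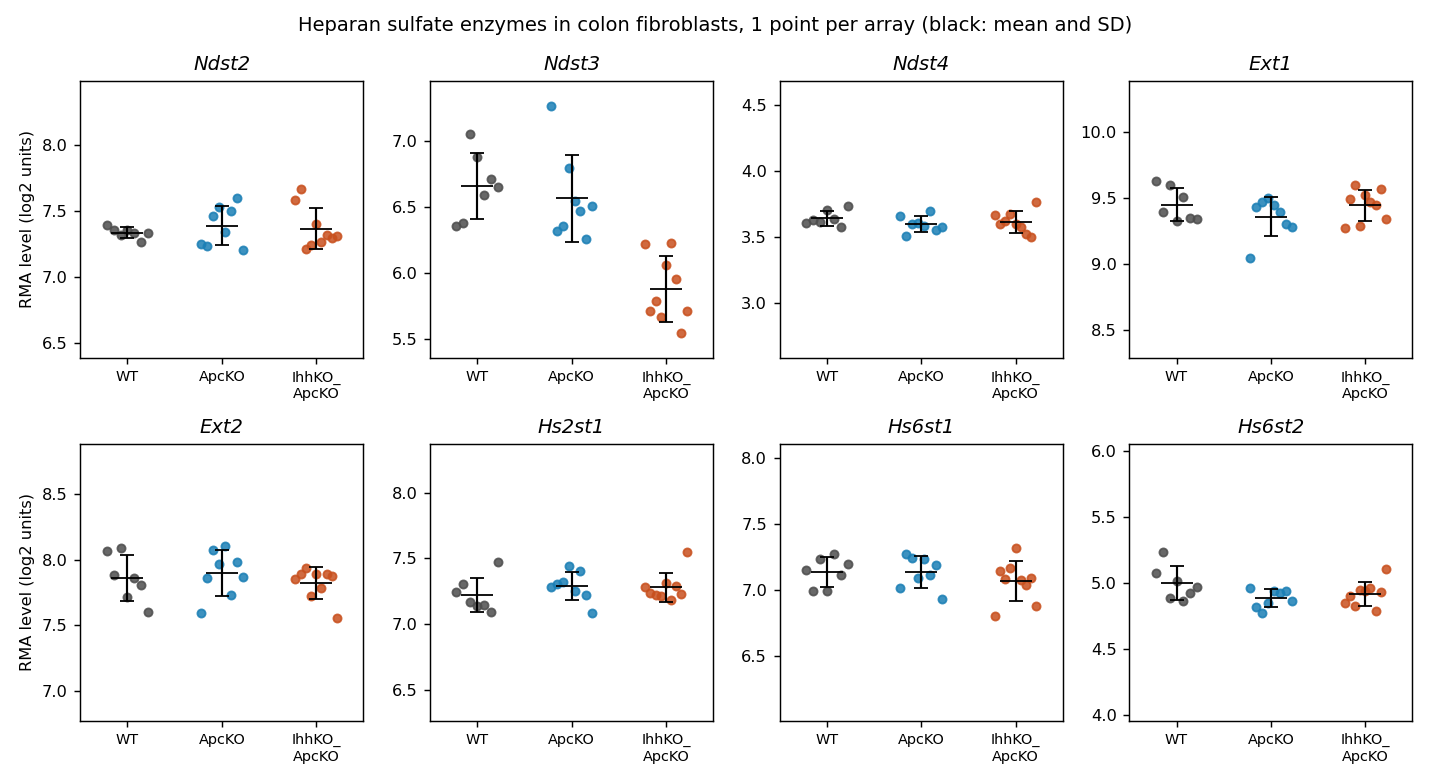
RMA level (log2 units, vertical axis, the same span of 2.1 log2 units in each panel) of 8 heparan sulfate enzymes on each array, by genotype, with the group mean and SD in black. Ndst3 is lower in the double knockout (mean 5.87) than in WT (6.66) and ApcKO (6.56), while the groups of the other 7 genes overlap.

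Few genes separated the groups in this way. All double-knockout arrays lay below all ApcKO arrays for 4 of 30142 genes, or 0.0133%, and groups without overlap in either direction made up 0.0232%. The 4 genes with the double knockout lower were Ndst3, Gli1, Dclk2 (a doublecortin-like kinase) and Selenbp2 (a selenium-binding protein). Gli1 is the transcription factor switched on by Hedgehog signalling. Dclk2 and Selenbp2 were named after their values were seen. Against WT, 0.0498% of genes had all double-knockout arrays below all WT arrays, and 0.073% had no overlap in either direction. Below all ApcKO and all WT arrays they lay for 2 genes, or 0.00664%, Ndst3 and Selenbp2. Selenbp2 reached 9.11 at most in the double knockout and 9.12 at least elsewhere. Since Ndst3 was chosen for its lower level in the double knockout, its place among these genes is part of the choice.

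The arrays carry a code whose letter runs almost along with genotype: WT arrays have A, ApcKO arrays B except A9, and double-knockout arrays C except B9. What the letter stands for is not given in the sources used here. A9 had the highest Ndst3 level of all arrays, 0.61 above the mean of the 7 WT arrays with the same letter. B9 was 0.25 below the mean of the 7 ApcKO arrays with the letter B, and below each of them. The 8 double-knockout arrays with the letter C averaged 5.83, which was 0.63 below those 7 ApcKO arrays, at 6.46. With the letter as a block, which compares A9 and B9 alone with their letter, the difference was -0.25 between the double knockout and ApcKO and 0.36 between the double knockout and WT. Genotype and letter can therefore hardly be told apart.

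B9 also stood apart from the other double-knockout arrays in Gli1, at 7.99 against 6.64 to 7.05 on the other 8, within the WT range of 7.98 to 8.20. In the Hedgehog genes Ptch1, at 9.53, and Hhip, at 8.96, B9 was also within the WT ranges, 9.32 to 9.84 and 8.68 to 9.76. Its Ndst3 level was the second highest of its group, after C5 at 6.23, where Gli1 was at 6.64. Within the double knockout, the array with the lowest Gli1 level was thus the one with the highest Ndst3 level. Without B9 the Ndst3 difference from ApcKO was -0.73, and without A9 it was -0.59, the smallest over the omission of each single array.

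**Figure D2:**
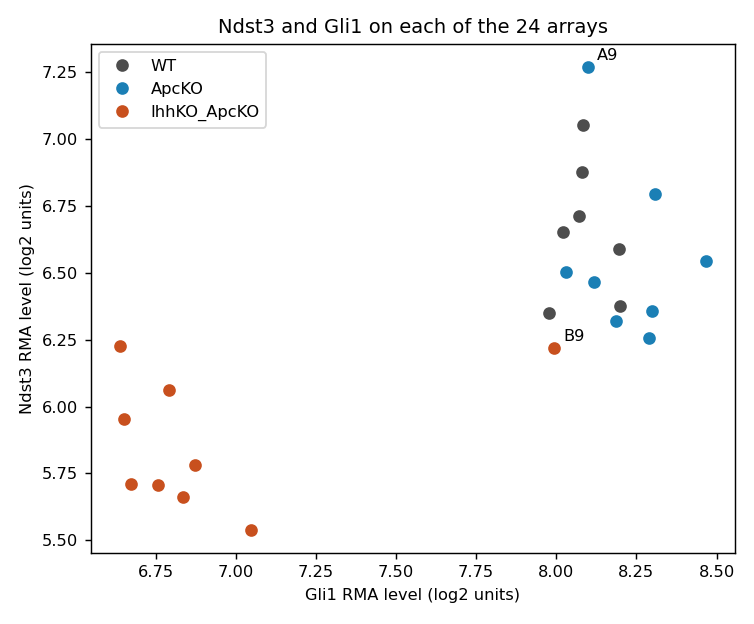
Ndst3 level against Gli1 level (both RMA log2 units), 1 point per array, coloured by genotype. The 8 double-knockout arrays with the letter C sit at the lower left, and B9, at 7.99 for Gli1 and 6.22 for Ndst3, sits just below the WT and ApcKO arrays.

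Ndst2 and Ndst4, the other Ndst genes measured, showed no such pattern, and Ndst1 was not analysed here. Ndst2, the enzyme that mast cells need to make heparin, was at 7.34 ± 0.039 (SD) over the 7 WT arrays, 7.39 ± 0.15 over the 8 of ApcKO and 7.37 ± 0.16 over the 9 of the double knockout. Its WT arrays lay close together, between 7.27 and 7.39, and inside the ranges of ApcKO, 7.21 to 7.60, and of the double knockout, 7.22 to 7.67. The difference between the double knockout and ApcKO was -0.023 (95% interval -0.16 to 0.11). Ndst4 was at 3.64 ± 0.056 (SD) over the 7 WT arrays, 3.60 ± 0.059 over the 8 of ApcKO and 3.61 ± 0.081 over the 9 of the double knockout. All its values, from 3.50 to 3.77, lay under the array medians of the 5222 negative control probe sets, 4.47 to 4.76, and above those of the antigenomic background probe sets, 2.68 to 3.15. It was thus above one set of controls and below the other, and its difference of 0.015 (95% interval -0.069 to 0.10) between the double knockout and ApcKO has to be read with that. Ndst3 lay above both sets of medians on every array, though within the spread of the negative controls, whose 95th percentile was 8.21.

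The chain polymerase genes did not pass the test either. Ext1 was at 9.45 ± 0.13 (SD) over the 7 WT arrays, 9.36 ± 0.15 over the 8 of ApcKO and 9.44 ± 0.12 over the 9 of the double knockout. Its lowest value, 9.05, was on A9, the array with the highest Ndst3 level. The double knockout differed from ApcKO by 0.086 (95% interval -0.047 to 0.22), the largest difference of a member other than Ndst3 in that comparison. Ext2 was at 7.86 ± 0.18 (SD, n = 7), 7.90 ± 0.17 (n = 8) and 7.82 ± 0.12 (n = 9) in the same order, with a difference of -0.075 (95% interval -0.23 to 0.078). For Ext2, 8 of 9 double-knockout arrays were below the ApcKO mean, but only 1 was below every ApcKO array.

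The O-sulfotransferase genes, which act after the Ndst step, also overlapped between the groups. Hs2st1 was at 7.23 ± 0.13 (SD) over the 7 WT arrays, 7.29 ± 0.11 over the 8 of ApcKO and 7.28 ± 0.11 over the 9 of the double knockout, with a difference of -0.0100 (95% interval -0.13 to 0.11) between the last 2. Hs6st1 was at 7.14 ± 0.11 (SD, n = 7), 7.14 ± 0.12 (n = 8) and 7.07 ± 0.15 (n = 9), with a difference of -0.070 (95% interval -0.20 to 0.064). Its lowest level, 6.80, was on B9. Hs6st2 was at 4.998 ± 0.13 (SD, n = 7), 4.88 ± 0.067 (n = 8) and 4.92 ± 0.094 (n = 9). In ApcKO it was below the WT mean on 8 of 8 arrays, with a difference of -0.11 (95% interval -0.23 to -0.0011), and it had the smallest unadjusted p of the 8 members there, but it did not pass over all genes (limma, adjusted p = 0.97). The low level of Hs6st2, close to the negative control medians, limits how far this difference can be read.

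Counted over the 8 members, the limma test called 0 in ApcKO minus WT, where it called 0 of 30142 genes (0%). At an unadjusted p under 0.05 that comparison had 1 member, Hs6st2, and 4.42% of all genes. In IhhKO_ApcKO minus ApcKO the only member past the threshold was Ndst3, which the choice of the gene had fixed, beside 0.0498% of all genes, 0.0464% with a lower and 0.00332% with a higher level. In IhhKO_ApcKO minus WT, on the same double-knockout arrays, it was again Ndst3 alone, beside 0.0829% of all genes, 0.073% with a lower and 0.00995% with a higher level. Nothing is read from these Ndst3 calls. As a description, its difference from ApcKO lay between -0.73 and -0.59 under the omission of each single array, and it was not past the threshold without any 1 of B3, B4, B5, C1, C2, C3, C6, C7 and C9.

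None of the 7 other members passed in any of the 3 comparisons, with the smallest adjusted p (limma) at 0.97 in ApcKO minus WT, 1.00 in IhhKO_ApcKO minus ApcKO and 0.79 in IhhKO_ApcKO minus WT. Their median difference was -0.0100 between the double knockout and ApcKO, where the median over all genes was 0.011, and 3 were positive and 4 negative. The 95% intervals of these 7 genes ran from -0.23 to 0.22 in that comparison, so changes over 1.17-fold lie outside the intervals of this model. With the code letter as a block, Hs6st1 was at -0.36 there, beyond that range. Ndst4 lay under the negative control medians and Hs6st2 close to them, which limits how far their intervals can be read. Against WT the intervals ran from -0.21 to 0.18. The lack of a call is no proof of equal expression.

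**Figure D3:**
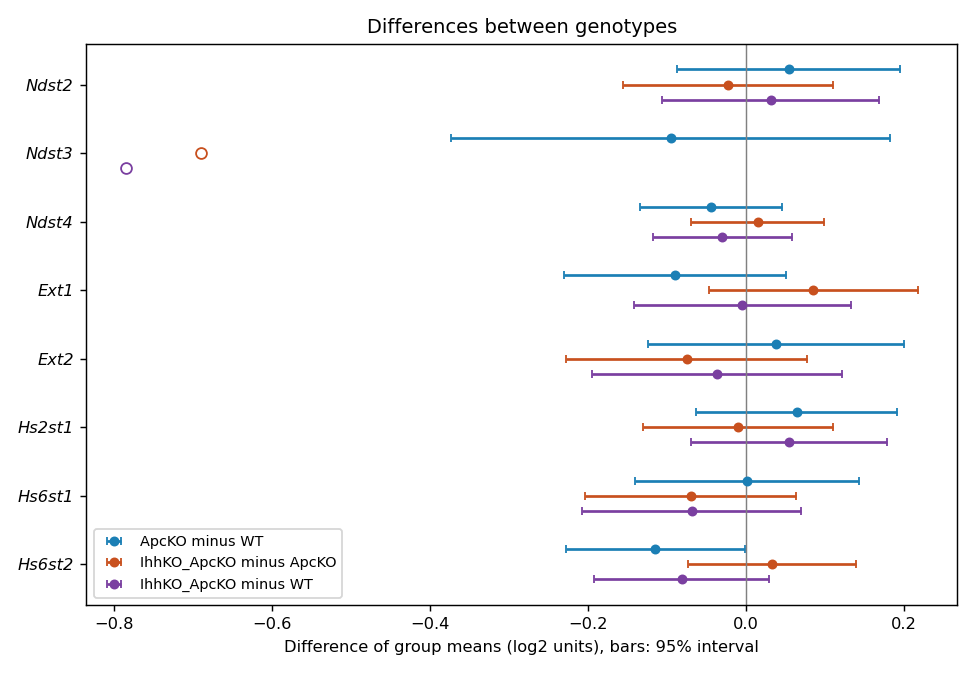
Difference of group means (log2 units, horizontal axis) for each enzyme in the 3 comparisons, with 95% intervals of the limma model. Open circles mark Ndst3 in the comparisons with the double knockout, -0.69 and -0.79, which carry no interval because the gene was picked for them; the other points, Ndst3 in ApcKO minus WT included, lie within 0.115 of 0.

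Across arrays, Ndst3 did not run along with the other enzymes. After each group mean was taken off, Pearson's r with Ndst3 over the 24 arrays was between -0.36 for Ext1 and 0.20 for Ndst4, as a description. The 5 genes most like Ndst3 over the 24 arrays, of all 30142, were Gm16907 (r = 0.819), Cys1, a protein of the primary cilium (0.811), Ptch1, the Hedgehog receptor (0.81), Acaa2, an enzyme of fatty acid oxidation (0.796), and Acsf2, an acyl-CoA synthetase (0.794). These values mix the difference between the genotypes with the spread inside them. With the group means taken off, r was 0.467 for Gm16907 and 0.405 for Ptch1, and it was 0.631 for Cys1, 0.594 for Acaa2 and 0.584 for Acsf2. For Gli1 it went from 0.754 to 0.114. Inside the groups the 5 genes most like Ndst3 were Mfsd8 (r = 0.78), a lysosomal membrane protein, Ikbip (0.766), the mitochondrial carrier Slc25a27 (0.728), Irak1bp1 (0.718) and Zc2hc1a (0.713). Both lists are the highest of all genes over the same arrays.

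The wider pathway was measured through 57 other genes in 7 lists, of which 0 passed the limma test in each of the 3 comparisons. At an unadjusted p under 0.05 there were 4 of them between ApcKO and WT, where 4.42% of all genes were, 5 between the double knockout and ApcKO (5% of all genes), and 9 between the double knockout and WT (7.65%). Their median difference between the double knockout and ApcKO was 0.0065, with 31 positive and 26 negative. Of all 30142 genes, 17067 were positive and 13075 negative there. In ApcKO minus WT, 11926 of all genes were positive and 18216 negative. The counts of signs below have to be read beside these.

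In the linker and chain initiation list, 0 of 9 measured genes passed. B3gat3, the glucuronyltransferase that completes the linker, was at 7.35 in the double knockout and 7.24 in ApcKO, a difference of 0.10 (SE 0.045). Extl2, a glycosyltransferase that acts on the linker, had its largest difference against WT, -0.20 (SE 0.055, limma adjusted p = 0.23). All 9 of 9 double-knockout arrays lay below every WT array, with 6.62 at most against 6.69 at least. Such a separation from WT was found for 0.0498% of all genes. Its difference in ApcKO minus WT was -0.15 (SE 0.056).

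The 3-O-sulfotransferases make a rarer mark, known from the antithrombin-binding site of heparin, and they were listed with Hs6st3. Of these 8 genes 7 had a positive difference between the double knockout and ApcKO, beside 17067 of all 30142 genes. Their median was 0.066, and 0 passed. The largest was Hs3st3b1 at 0.19 (SE 0.085), and against WT it was 0.28 (SE 0.088, limma adjusted p = 0.32). Hs3st1 was at 6.84 in ApcKO and 6.69 in WT, a difference of 0.15 (SE 0.064).

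The 4 genes of the list on chain editing outside the cell had negative differences between the double knockout and ApcKO, with a median of -0.13 and 0 passing. They are the endosulfatases Sulf1, at -0.15 (SE 0.11), and Sulf2, at -0.11 (SE 0.090), which remove 6-O-sulfate, the heparanase Hpse and its homologue Hpse2, at -0.23 (SE 0.20). All 4 were positive in ApcKO minus WT, by at most 0.049. The 2 comparisons share the ApcKO arrays.

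Among the 11 measured genes of sulfate and sugar donors, the sulfate transporter Slc26a2 had the largest difference, 0.25 (SE 0.14) in ApcKO minus WT, and between the double knockout and ApcKO no difference exceeded 0.075 in size. Of the 7 lysosomal enzymes of heparan sulfate breakdown, Naglu, which removes N-acetylglucosamine, was at 7.14 in WT, 7.25 in ApcKO and 7.40 in the double knockout, and had the smallest adjusted p of the 57 genes against WT, 0.18 (limma, difference 0.27, SE 0.070, 9 of 9 arrays above the WT mean). Of the basement membrane core proteins Hspg2 (perlecan) was at -0.11 (SE 0.087), Agrn (agrin) at 0.080 (SE 0.086) and Col18a1 at -0.019 between the double knockout and ApcKO. The enzymes of chondroitin and dermatan sulfate, which share the linker with heparan sulfate, had a median difference of 0.012 over 15 genes there, with Csgalnact1 at 0.17 (SE 0.079) and Chsy3 at -0.12 (SE 0.095).

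**Figure D4:**
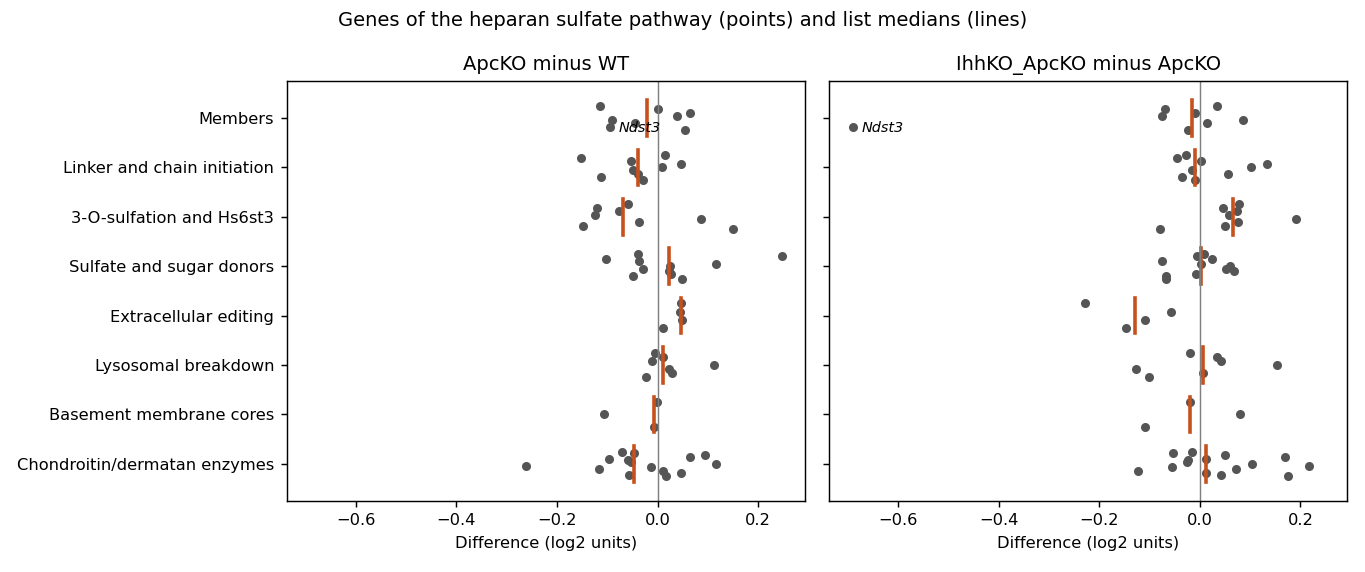
Differences of group means (log2 units, horizontal axis) for the genes of each fixed pathway list in ApcKO minus WT (left) and IhhKO_ApcKO minus ApcKO (right), 1 point per gene, with list medians as lines. In the right panel Ndst3, at -0.69, lies apart, and the other points lie between -0.23 and 0.22.

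The fibroblast label was checked on markers. The 8 measured fibroblast markers averaged 10.7, 10.7 and 10.6 in WT, ApcKO and IhhKO_ApcKO, with decorin (Dcn) at 12.51 and podoplanin (Pdpn), the antigen of the sort, at 10.9, 10.8 and 10.9. Ptprc, which encodes CD45, was at 2.94, 2.92 and 2.99, near the antigenomic medians. The other antigens that the sort was set to remove were higher. Epcam was at 5.98, 6.88 and 6.51, and Pecam1, which encodes CD31, at 5.77, 5.67 and 5.71. These means lay above the negative control medians, 4.47 to 4.76, and under the 95th percentile of those controls, 8.21. Epithelial markers averaged between 5.70 and 8.36 per array over their 10 genes, and their mean was 6.83 ± 0.70 (SD) over the 7 WT arrays, 7.43 ± 0.78 over the 8 of ApcKO and 7.16 ± 0.88 over the 9 of the double knockout. All 10 were higher in ApcKO than in WT and lower in the double knockout than in ApcKO, with 0 past the test, and the r of their mean with Ndst3 inside the groups was -0.089. Between the double knockout and ApcKO, 8 of 8 leukocyte markers were higher, by at most 0.34, and 7 of 8 fibroblast markers were lower, by at most 0.18, again with 0 past the test. Of all 30142 genes, 17067 were higher and 13075 lower there.

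Enteric glia and neuron markers, of which 7 of 9 were measured, averaged between 5.59 and 5.91 per array in WT, 5.58 and 5.70 in ApcKO and 5.52 and 5.82 in the double knockout, with 3 markers higher and 4 lower in the double knockout than in ApcKO. Elavl4, a neuronal marker and the dimmest of the 7, was at 3.91, 3.85 and 3.88 in WT, ApcKO and the double knockout. Uchl1, the brightest, was at 6.74, 6.52 and 6.56 in the same order. Smooth muscle markers had 5 of 5 members lower in the double knockout than in ApcKO, by 0.19 to 0.56, with 0 past the test and 5 at an unadjusted p under 0.05. Against WT the double knockout was lower in 5 of 5 as well, by 0.21 to 0.27, with 0 past the test. In ApcKO, 4 of the 5 were higher than in WT. The mean of these markers per array lay between 7.67 and 8.37 in WT, 7.87 and 8.27 in ApcKO, and 7.35 and 8.12 in the double knockout. Its r with Ndst3 inside the groups was 0.167. The part of these lists in the Ndst3 difference was not tested.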

How the data were processed

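RNA was measured in 24 samples of sorted mouse colon fibroblasts. The deposited values are on the log2 scale and come from RMA, per the submitters' processing notes, with its version and the build not given in the sources used here. Per the labels' protocols, RNA was amplified with a 3′ IVT pico kit and hybridised to 1 array per sample. Of 72688 probe sets, 6732 controls were left out. Of the 65956 others, 30604 had 1 gene symbol, 2146 had several and were not named, and 33206 had none here; 827 were renamed by their Entrez number. This left 30142 genes, and for 355 of them, with several probe sets, the brightest was used. Array medians lay between 4.96 and 5.14, and no pair of arrays was identical; the number of arrays limits the precision.

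Groups follow the sample titles. The tests used limma 3.58.1 (R 4.3.3) on all 24 arrays in 1 model, with Benjamini-Hochberg adjustment over all genes and a threshold of 0.05. The procedure was tested on simulated data. Named genes were the 10 members, in each pathway list the genes past the test or else with the smallest p of each sign, the Hedgehog genes Gli1, Ptch1 and Hhip, and the 5 genes most like Ndst3 by 2 measures; further ones are given as examples. The members and lists were chosen with earlier results of these data known. Alternatives were median centring, the mean over probe sets, a filter on dim genes, a trend, array weights, the code letter as a block, Xist as a covariate, only the groups compared, and the omission of each array.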

Additional observations from a re-analysis of the deposited data

Results flagged for a closer look

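Hs2st1 in the double knockout had 1 array far from the others. On C9 it was at 7.55, and the next highest array of the group was at 7.31, so that this gap took up 0.652 of the range of the 9 arrays. C9 also had the highest antigenomic background median of the 24 arrays, 3.15. Of 24 sets of gene and genotype examined, 1 stood out in this way, and chance marks about 1 in 20.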

How the results depend on the processing

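A block for the code letter leans on A9 and B9 alone; under it 119 genes passed in ApcKO minus WT, 51 in IhhKO_ApcKO minus ApcKO and 82 in IhhKO_ApcKO minus WT, and 0 members in each. IhhKO_ApcKO minus ApcKO called 8 genes after median centring, 23 without dim genes, 67 with array weights and 8 to 52 without single arrays (25 without A9, 9 without B4, B5 or C1, 8 without C6 and 52 without B9). IhhKO_ApcKO minus WT called 14 with median centring, 46 with array weights, 8 with only its 2 groups and 12 to 66 without single arrays (12 without A5 or A6, 15 without A4, A8, C4 or C6, 16 without A1 or C7, 66 without B9). The count of members past the threshold in IhhKO_ApcKO minus ApcKO, which is Ndst3 by choice and says nothing of stability, was 0 with median centring, with only the 2 groups and with the letter as a block, and 0 to 1 without single arrays; the Ndst3 difference itself was -0.69 with median centring and with only the 2 groups, as with all arrays, and -0.25 with the letter as a block. The 7 other members passed in 0 of 498 combinations of gene, comparison and setting (limma, smallest adjusted p = 0.16), and their sign changed in 32. With the letter as a block, ApcKO minus WT turned to -0.084 for Ndst2, 0.61 for Ndst3, 0.015 for Ndst4, -0.27 for Ext2 and -0.12 for Hs6st1. IhhKO_ApcKO minus ApcKO turned to 0.17 for Ndst2, -0.13 for Ext1 and -0.025 for Hs6st2, and IhhKO_ApcKO minus WT to 0.36 for Ndst3 and 0.089 for Ndst4. Under the same block some differences kept their sign but grew in size. Ext1 went to -0.40 in ApcKO minus WT, and Hs6st1 to -0.36 in IhhKO_ApcKO minus ApcKO. In IhhKO_ApcKO minus WT, Ext1 went to -0.53, Hs6st1 to -0.47 and Ext2 to -0.35. With Xist as a covariate Hs2st1 turned to 0.0095 in IhhKO_ApcKO minus ApcKO, and Ext1 in IhhKO_ApcKO minus WT to 0.023 with median centring and 0.0073 with array weights. Without single arrays, differences crossed 0 for Ext2 (-0.0050 to 0.082) and Hs6st1 (-0.023 to 0.031) in ApcKO minus WT, for Ndst2 (-0.060 to 0.0066), Ndst4 (-0.0039 to 0.029) and Hs2st1 (-0.044 to 0.012) in IhhKO_ApcKO minus ApcKO, and for Ndst2 (-0.0060 to 0.050), Ext1 (-0.025 to 0.025) and Ext2 (-0.080 to 0.0015) in IhhKO_ApcKO minus WT. The cause was not tested. No paired analysis was run. The groups share no full sample code, but its digit recurs across the letters, as in A1, B1 and C1. What the digit stands for is not given in the sources used here. The epithelial marker mean was the lowest of its group on A3, B3 and C3, at 6.01, 6.25 and 5.70. On A8 and B8 it differed, at 6.63 and 8.30. The part of the digit in the differences was not tested. Low signal over background limits Ndst4 and Hs6st2 most. Every measured member but Ext1, Ndst3 included, had a mean under the 95th percentile of the negative controls, 8.21.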
